A study of Mus musculus with 6 samples.

Results

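Genes of cholesterol and fatty acid synthesis were examined in undifferentiated mouse embryonic stem (ES) cells of a Hira-null clone, Cl34 (genotype Hira-/-), and of the WT parental line w9.5. There were 3 arrays for each line, labelled as biological replicates 1 to 3. The members were 31 genes listed for their place in these pathways, each read from every probe set of the deposited table whose annotation gives that 1 symbol. Of these, 30 genes with 33 probe sets were found among 19938 genes and 35557 probe sets, and Acat2, a thiolase gene at the entry to the mevalonate pathway, had no such probe set. They fall into a sterol branch of 20 measured genes and a fatty acid branch of 10, and all 33 probe sets passed the filter on low values.

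Both lines were grown in the same serum-containing medium with ESGRO, a preparation of the cytokine LIF, and RNA was extracted with Trizol from scraped cells. HIRA is a chaperone of the histone variant H3.3. The labels give 1 Hira-null clone and do not say how its deletion was made, so effects of Hira loss and of anything else in which this clone departs from w9.5 cannot be told apart. Cells were harvested at different confluence, per the design text, but no label gives the confluence of an array, and its part in the values was not tested. Nothing further says that replicates were separate cultures, and the p-values then cover only variation among the 6 arrays, part of which may be technical.

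Cells make cholesterol from acetyl-CoA by way of mevalonate, isoprenoid diphosphates, squalene and lanosterol. Fatty acids are built from the same acetyl-CoA by carboxylation, chain synthesis, elongation and desaturation. Both routes are controlled by the SREBP transcription factors. When membranes are low in sterol these leave the endoplasmic reticulum, are cut by proteases, and enter the nucleus to raise transcription of the pathway genes, whereas the INSIG proteins hold them back when sterol is plentiful. The SREBP encoded by Srebf2 acts mainly on sterol genes, and the main product of Srebf1 mainly on fatty acid genes.

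SREBP binds sterol regulatory elements, usually beside sites for NF-Y, which reads CCAAT, and Sp1, which reads GGGCGG. In RefSeq promoters of the build GRCm38.p6, from 250 bases before to 50 after a gene's start, 24 of the 31 listed genes matched by symbol, with 29 promoters. The 9-letter element TCACNCCAC, searched on both strands, was in the promoter of Hmgcs1 alone among these 24 genes, against 1.24% of all 32851 promoters and 1.5% of the genes tested on the arrays that had one. CCAAT or its complement was in 16 of 17 sterol genes and 4 of 7 fatty acid genes, against 37.4% of all promoters and 41.7% of the genes tested. GGGCGG or its complement was in 16 of 17 sterol genes and 4 of 7 fatty acid genes, against 35.7% of all promoters and 64.1% of the genes tested. The palindrome CACGTG, the E-box that SREBP can also bind, was in 4 of 17 sterol genes (Dhcr7, Hsd17b7, Insig1 and Sc5d) and 0 of 7 fatty acid genes, against 7.15% of all promoters and 11.2% of the genes tested. These matches are descriptions of letters, not of binding.

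The promoters of 4 members are shown, with matches to TCACNCCAC, CCAAT and GGGCGG on either strand in capitals. Hmgcs1 is shown as the one with a match to TCACNCCAC, and sterol elements of other sequence were not searched. Idi1, Mvd and Fasn were chosen after their values were seen. Idi1 and Fasn were taken for the wide range over arrays and Mvd for the separation between the lines described below. The Hmgcs1 promoter lies at chr13:119690101-119690400 on the plus strand. The Idi1 promoter lies at chr13:8885356-8885655 on the plus strand. The Mvd promoter lies at chr8:122443373-122443672 on the minus strand. The Fasn promoter lies at chr11:120824498-120824797 on the minus strand. Hmgcs1 holds 4 matches to CCAAT and 3 to GGGCGG beside its match to TCACNCCAC. Idi1 and Mvd hold 2 and 1 each, and Fasn holds 3 and 0, of which 2 CCAAT matches on opposite strands overlap.
Hmgcs1: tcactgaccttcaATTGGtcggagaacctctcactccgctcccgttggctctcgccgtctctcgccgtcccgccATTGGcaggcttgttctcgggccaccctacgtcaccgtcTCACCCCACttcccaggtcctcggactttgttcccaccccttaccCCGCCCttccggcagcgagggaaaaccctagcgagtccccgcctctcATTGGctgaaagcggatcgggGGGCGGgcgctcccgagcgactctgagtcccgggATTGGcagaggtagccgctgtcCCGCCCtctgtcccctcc
Idi1: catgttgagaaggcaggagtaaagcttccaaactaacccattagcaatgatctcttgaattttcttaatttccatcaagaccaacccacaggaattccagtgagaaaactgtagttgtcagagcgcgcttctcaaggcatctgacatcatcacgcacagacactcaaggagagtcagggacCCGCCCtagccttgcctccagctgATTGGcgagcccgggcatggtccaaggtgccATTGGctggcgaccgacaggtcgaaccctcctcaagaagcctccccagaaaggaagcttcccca
Mvd: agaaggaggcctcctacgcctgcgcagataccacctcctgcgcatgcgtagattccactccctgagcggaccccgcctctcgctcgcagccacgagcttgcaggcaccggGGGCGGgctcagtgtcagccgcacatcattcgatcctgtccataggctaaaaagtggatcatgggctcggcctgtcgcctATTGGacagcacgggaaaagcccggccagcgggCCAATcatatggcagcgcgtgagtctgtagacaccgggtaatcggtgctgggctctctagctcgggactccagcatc
Fasn: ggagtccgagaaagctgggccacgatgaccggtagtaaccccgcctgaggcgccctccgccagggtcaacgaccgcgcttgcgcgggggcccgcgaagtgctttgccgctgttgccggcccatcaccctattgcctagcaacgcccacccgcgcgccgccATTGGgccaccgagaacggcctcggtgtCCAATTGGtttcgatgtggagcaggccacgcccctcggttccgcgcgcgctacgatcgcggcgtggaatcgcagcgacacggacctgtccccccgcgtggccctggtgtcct

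The comparison asked how these genes differ between the Hira-null clone and its parental line, and how the arrays of a line differ among themselves. All levels below are deposited log2 values, differences are Hira-null minus WT on that scale, and the standard error (SE) and p come from limma, with Benjamini-Hochberg adjustment over all 25142 probe sets kept. A level on an array depends on its probes, so genes are not ranked by level. In these bulk samples fewer cells expressing a gene and less RNA per cell cannot be told apart. The number of arrays limits the precision.

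The 6 arrays had medians of 4.93 to 5.02. Hira-null 3 stood apart from the rest, with a mean correlation of 0.960 with the other arrays of its line over the probe sets kept, against 0.969 to 0.983 for the other 5 arrays. Every result below is therefore given with and without it where it matters. Over all probe sets, 0.00398% were called lower and 0% higher at an adjusted p under 0.05, which is 1 probe set, of the germ cell factor gene Dppa3, while 1524 were lower and 1022 higher at an unadjusted p under 0.05. Without Hira-null 2 there were 41 calls, all lower, and without any other single array 0. The called Dppa3 probe set averaged 3.77 ± 0.16 in Hira-null and 6.08 ± 0.14 in WT arrays (SD, n = 3 each). A second, higher Dppa3 probe set averaged 4.76 ± 0.21 and 6.70 ± 0.12. Its difference was -1.94 (SE 0.15, limma adjusted p = 0.0526), which missed the threshold. Hira itself read 7.40, 7.05 and 6.81 in the Hira-null arrays and 7.49, 7.86 and 7.83 in the WT arrays, a difference of -0.64 (SE 0.19, limma adjusted p = 0.352), and which part of the gene its probes cover relative to the deletion is not known. The ES cell markers Pou5f1 and Nanog averaged 11.5 ± 0.13 and 10.9 ± 0.22 in the Hira-null arrays, against 11.2 ± 0.28 and 10.9 ± 0.10 in WT arrays. Sox2 averaged 10.01 ± 0.51 in Hira-null arrays, with 9.44 in Hira-null 3, against 10.12 ± 0.06 in WT arrays.

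No gene of either branch passed the test between the lines. By limma 0 of 30 genes were called. At an unadjusted p under 0.05, 6 of 30 had lower values in the Hira-null arrays, beside 6.29% of 15199 genes tested. All 6 genes at that p were lower (Mvd, Dhcr7, Srebf1, Acly, Scd1 and Fads2). Of these, Mvd lies on chromosome 8, where 234 of 812 genes were lower at that p. Srebf1 and Acly lie on chromosome 11, where 365 of 1354 were. On the other chromosomes 356 of 13024 were. With 1 array left out, the genes lower at an unadjusted p under 0.05 numbered 14 without Hira-null 1, beside 6.09% of all genes. Without Hira-null 3 they numbered 8, beside 6.47%, and 1 further gene, Elovl6, was higher. The share of higher genes without that array was not computed, and with all 6 arrays 634 of 15199 genes were higher. The lower genes numbered 3 without WT 1, 2 or 3, beside 4.97%, 5.4% and 4.28% of all genes. By limma 0 of 30 were called in each case. The direction was nevertheless uneven. All 20 sterol genes and 8 of 10 fatty acid genes had a lower mean in the Hira-null arrays, beside 50.8% of all genes, with median differences of -0.41 for the sterol and -0.77 for the fatty acid branch against -0.01 over all genes. The 2 branches differed in which arrays carried this. Without Hira-null 3, 13 of 20 sterol genes had a lower mean and the sterol median was -0.14, whereas 9 of 10 fatty acid genes had a lower mean and the fatty acid median was -0.40. The background without that array was 50.4% of genes lower. Glycolysis and hypoxia genes, given below, were close to the sterol branch in these counts and medians. Genes with no overlap between the lines, all lower in Hira-null arrays, numbered 5 of 20 in the sterol branch and 6 of 10 in the fatty acid branch. The share over all genes was 9.55%, but it was uneven along the genome. Chromosome 8, with Mvd, had 288 of 812 such genes. Chromosome 11, with Srebf1, Acly and Fasn, had 448 of 1354, and the other chromosomes had 715 of 13024. Without Hira-null 3 the lower ones numbered 5 of 20 sterol and 7 of 10 fatty acid genes, beside 15.4% of all genes. In that case 1 fatty acid gene, Elovl6, was higher without overlap, beside 2072 of all 15199 genes. In the sterol branch the lower ones numbered 11 of 20 without Hira-null 1, beside 13.8% of all genes, and 8 of 20 without WT 3, beside 12.8%. The difference between the branches was not tested.

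The mevalonate genes turn acetyl-CoA into the isoprenoid building block. Hmgcs1 encodes the cytosolic HMG-CoA synthase at the entry to mevalonate, and its promoter above holds a match to TCACNCCAC. It read 10.16, 9.87 and 8.42 in the Hira-null arrays and 9.92, 10.15 and 9.60 in the WT arrays. Hira-null 1 and 2 lay within or just above the WT values, and Hira-null 3 lay 1.6 below their mean, or 3.02-fold. The line difference was -0.41 (SE 0.44, limma adjusted p = 0.844), and 0.13 without Hira-null 3. Mvk, the mevalonate kinase gene, showed the same picture at a smaller size, with 6.80, 6.91 and 6.02 in Hira-null and 6.56, 6.85 and 6.74 in WT arrays. Its difference was -0.14, and 0.14 without Hira-null 3. The next 2 enzymes, phosphomevalonate kinase (Pmvk) and mevalonate diphosphate decarboxylase (Mvd), had no overlap between the lines. Pmvk read 6.99, 6.96 and 6.34 in Hira-null and 7.20, 7.29 and 7.03 in WT arrays, so that its highest Hira-null and lowest WT values almost touched, and its difference was -0.41, and -0.20 without Hira-null 3. Mvd read 8.22, 7.84 and 6.94 in Hira-null and 8.46, 8.68 and 8.56 in WT arrays. Its difference was -0.90 (SE 0.31, limma adjusted p = 0.409), 1.87-fold lower, and -0.54 (SE 0.16, limma adjusted p = 0.400) without Hira-null 3. Mvd lies on chromosome 8, where 812 genes had a median difference of -0.27, and what part this has in its value was not tested.

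Idi1 and Fdps make the isoprenoid diphosphates used for sterols, ubiquinone and protein prenylation. Idi1, the isopentenyl diphosphate isomerase gene, had the widest range of the sterol branch. Its higher probe set read 9.56, 9.02 and 7.04 in the Hira-null arrays and 8.90, 9.42 and 8.83 in the WT arrays. Hira-null 1 was the highest of all 6 arrays and Hira-null 3 the lowest, 4.76-fold below the mean of Hira-null 1 and 2. The line difference was accordingly imprecise, at -0.51 (SE 0.61, limma adjusted p = 0.865), and 0.24 without Hira-null 3. A second Idi1 probe set ran in parallel, with 9.26, 8.77 and 6.70 in Hira-null and 8.63, 9.15 and 8.53 in WT arrays. Idi1 is on chromosome 13, whereas the 10 named probe sets with the nearest identifiers to the higher one are all on chromosome 2, so signal from another copy was not separated. Fdps, the farnesyl diphosphate synthase gene, did not overlap between the lines, with 9.06, 8.91 and 7.85 in Hira-null and 9.25, 9.32 and 9.19 in WT arrays. Its difference was -0.65 (SE 0.31, limma adjusted p = 0.545) and -0.27 without Hira-null 3.

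The squalene steps commit isoprenoids to sterols, and their 3 genes had WT-like levels in Hira-null 1 and 2. Fdft1, the squalene synthase gene, read 10.42, 10.03 and 9.47 in Hira-null and 10.06, 10.41 and 10.03 in WT arrays, and its lower probe set gave 9.79, 9.40 and 8.77 against 9.48, 9.82 and 9.39. Sqle, which encodes the rate-limiting squalene epoxidase, read 9.42, 8.73 and 7.64 in Hira-null and 8.85, 9.23 and 8.64 in WT arrays. Lss, the lanosterol synthase gene, read 8.49, 8.10 and 6.86 in Hira-null and 8.09, 8.46 and 8.17 in WT arrays. Hira-null 1 was above every WT array for Sqle. It lay just above WT 2, the highest WT array, for Lss and the higher Fdft1 probe set, and just below it for the lower one. Hira-null 3 was below every other array in all 3 genes. Relative to the mean of Hira-null 1 and 2, Hira-null 3 was 1.69-fold lower for Fdft1 and 2.70-fold lower for Sqle and Lss. Differences were -0.19, -0.31 and -0.42 with all arrays, and 0.06, 0.17 and 0.06 without Hira-null 3. All 3 thus changed sign when that array was left out.

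The late steps convert lanosterol to cholesterol. Dhcr7, which encodes the reductase of the final step, had a difference close to that of Mvd, and these 2 were the largest of the branch with all 6 arrays. Dhcr7 read 8.33, 8.29 and 7.03 in the Hira-null arrays and 8.96, 8.85 and 8.57 in the WT arrays, with no overlap. The difference was -0.91 (SE 0.35, limma adjusted p = 0.452), 1.88-fold lower, and -0.48 (SE 0.16, limma adjusted p = 0.425) without Hira-null 3. Msmo1, the methylsterol monooxygenase gene on chromosome 8, read 10.99, 10.59 and 9.42 in Hira-null and 11.05, 11.20 and 10.67 in WT arrays, and its lines overlapped, with a difference of -0.64, and -0.18 without Hira-null 3. Cyp51, the lanosterol demethylase gene, read 8.39, 7.71 and 7.25 in Hira-null and 8.29, 8.55 and 7.72 in WT arrays. WT 3 was as low as Hira-null 2 here, so the WT arrays alone spanned 0.83. Its difference was -0.40, and -0.14 without Hira-null 3.

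Hsd17b7, a sterol ketoreductase gene, read 7.31, 6.30 and 6.17 in Hira-null and 7.14, 7.40 and 6.82 in WT arrays, so that Hira-null 2 was also below all WT arrays. Nsdhl, the dehydrogenase gene that acts with Msmo1 and Hsd17b7 to remove sterol methyl groups, read 8.72, 8.34 and 7.39 in Hira-null and 8.13, 8.47 and 8.13 in WT arrays. Its difference was -0.09, and 0.29 without Hira-null 3. The remaining late genes varied less. Ebp, a sterol isomerase gene, read 6.81, 6.75 and 6.41 in Hira-null and 6.80, 6.90 and 7.10 in WT arrays. Tm7sf2, a sterol reductase gene, read 6.46, 6.4 and 6.26 in Hira-null and 6.53, 6.58 and 6.55 in WT arrays, which did not overlap although the difference was only -0.18 (SE 0.12, limma adjusted p = 0.688). Sc5d, a sterol desaturase gene, read 8.06, 7.69 and 7.79 in Hira-null and 8.12, 8.15 and 7.79 in WT arrays, and was the sterol gene in which Hira-null 3 was not the lowest of its line.

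Among the regulatory genes of the branch, the transcription factor gene itself was the flattest. Srebf2 read 9.12, 9.06 and 8.97 in Hira-null and 9.29, 9.09 and 8.96 in WT arrays, a difference of -0.06 (SE 0.14, limma adjusted p = 0.932). Insig1, an SREBP target whose product retains SREBP in the endoplasmic reticulum, read 10.09, 9.5 and 8.73 in Hira-null and 10.34, 10.06 and 9.57 in WT arrays. Stard4, which encodes a sterol carrier protein, read 7.90, 7.68 and 6.92 in Hira-null and 8.42, 8.03 and 7.88 in WT arrays. Insig1 and Stard4 were highest in WT 1 and lowest in Hira-null 3, with differences of -0.55 (SE 0.36) and -0.61 (SE 0.28). Without Hira-null 3 these differences were -0.20 and -0.32. Hira-null 3 was 2.09-fold and 1.83-fold below the mean of Hira-null 1 and 2 for these 2 genes, against 1.09-fold for Srebf2.

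**Figure D1:**
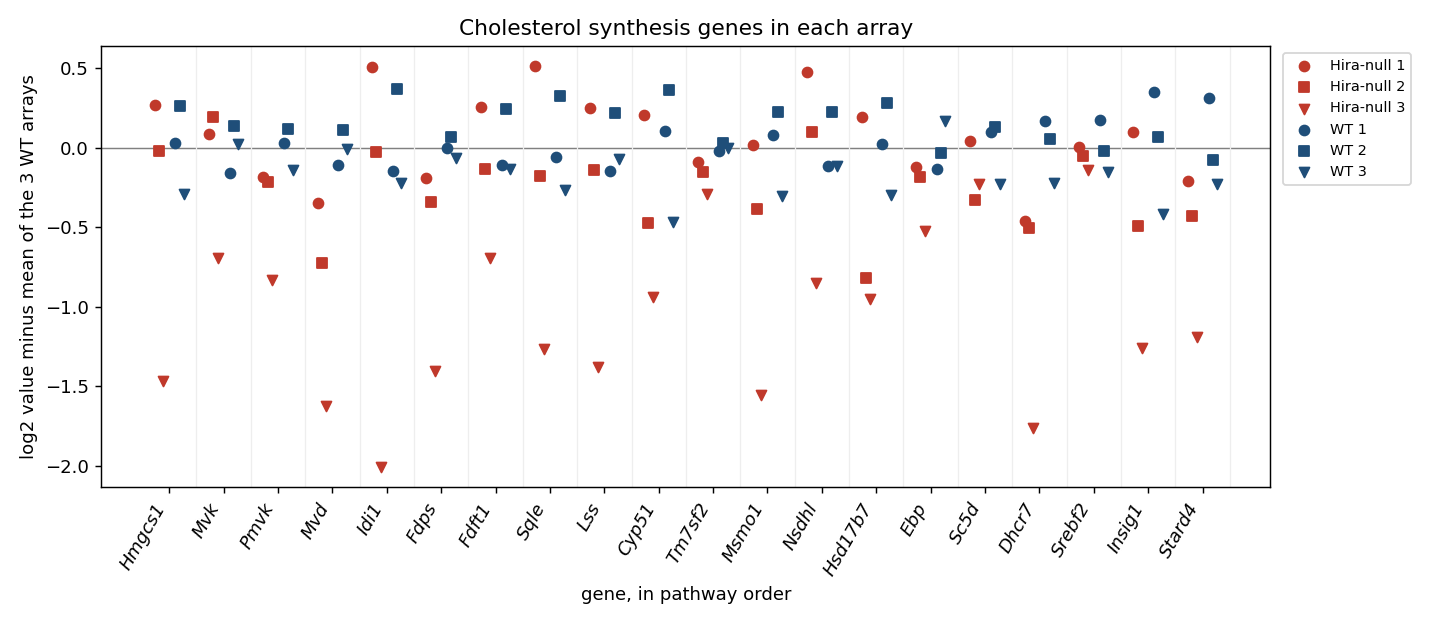
Each point is 1 array's log2 value minus the mean of the 3 WT arrays, for the 20 measured sterol branch genes along the horizontal axis (Hira-null arrays in red at the left of each gene, WT arrays in blue at the right, marker shape for the replicate number). Hira-null 3 lies below all other arrays in 18 of 20 genes, and without it 5 of 20 genes have both remaining Hira-null arrays below the WT arrays.

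The spread within a line had a common order across the sterol genes. Hira-null 1 was the highest array of its line in 19 of 20 sterol genes and Hira-null 3 the lowest in 19 of 20, where over all genes tested these shares were 29.8% and 37.7%. In the WT line, WT 2 was the highest in 15 of 20 and WT 3 the lowest in 14 of 20, against 31.7% and 28.9% over all genes. Hira-null 3 was the lowest of all 6 arrays in 18 of 20 sterol genes, beside 26% of genes tested. It lay below the mean of Hira-null 1 and 2 in all 20 sterol and 8 of 10 fatty acid genes, beside 49.5%, and at least 1 log2 unit below it in 10 of 20 and 3 of 10, beside 2.2%. The median over sterol genes of Hira-null 3 minus the mean of the other Hira-null arrays was -0.97, over fatty acid genes it was -0.74, and over all genes it was 0.01. For the WT arrays, each set against the mean of the other 2, the medians were 0.01, 0.20 and -0.28 in WT 1, 2 and 3. These values have no replicate, since 1 array is set against 2, and no test was made of them.

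Fatty acid synthesis starts from cytosolic acetyl-CoA. Srebf1, the transcription factor gene of this branch, read 7.32, 7.55 and 6.97 in the Hira-null arrays and 8.23, 7.85 and 8.22 in the WT arrays. All 3 Hira-null values were below all WT values, also without Hira-null 3. The difference was -0.82 (SE 0.19, limma adjusted p = 0.254), 1.77-fold lower, and -0.67 (SE 0.17, limma adjusted p = 0.334) without that array. Acly, the ATP citrate lyase gene that supplies acetyl-CoA from citrate, read 9.93, 10.01 and 9.08 in Hira-null arrays and 10.39 in each of the 3 WT arrays. Its difference was -0.72 (SE 0.25, limma adjusted p = 0.409), and -0.42 without Hira-null 3. Acss2, which makes acetyl-CoA from acetate, ran the other way, with 6.07, 6.18 and 6.72 in Hira-null and 6.39, 6.03 and 6.06 in WT arrays. Hira-null 3 was the highest array for this gene, 0.60 above the mean of Hira-null 1 and 2, and the lines overlapped. The Acss2 difference was 0.16 with all arrays and changed sign to -0.035 without Hira-null 3.

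Acaca and Fasn encode acetyl-CoA carboxylase and fatty acid synthase, the enzymes of chain synthesis. Fasn read 9.55, 9.56 and 7.85 in Hira-null and 9.72, 10.10 and 9.96 in WT arrays. Hira-null 1 and 2 lay just below the lowest WT array and Hira-null 3 lay 3.26-fold below them, so the difference of -0.94 had an SE of 0.45 (limma adjusted p = 0.545), and it was -0.37 (SE 0.15) without Hira-null 3. The higher Acaca probe set read 8.41, 8.37 and 7.49 in Hira-null and 8.26, 8.76 and 8.86 in WT arrays, where WT 1 was below Hira-null 1 and 2, and its difference was -0.54, and -0.24 without Hira-null 3. The lower one read 7.12, 7.15 and 6.37 in Hira-null and 7.17, 7.45 and 7.77 in WT arrays, without overlap. Acaca is on chromosome 11, whereas 9 of the 10 named probe sets nearest in identifier to the higher one are on chromosome 12, so signal from another copy was not separated.

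Srebf1, Acly, Acaca and Fasn all lie on chromosome 11, where 1354 genes had a median difference of -0.24 and the chromosomes other than 8 and 11 one of 0.02. What part this has in the values of these 4 genes was not tested, and the median of the 6 fatty acid genes elsewhere was -0.62. Among those elsewhere, Scd1, Scd2, Fads1 and Fads2 all lie on chromosome 19 and had lower means. Acss2 on chromosome 2 and Elovl6 on chromosome 3 had higher means, at differences of 0.16 and 0.27. In the sterol branch 2 genes, Mvd and Msmo1, lie on chromosomes 8 or 11, and the median of the other 18 was -0.405.

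The desaturases and the elongase shape the chains. Scd1 and Scd2 encode stearoyl-CoA desaturases, which make monounsaturated fatty acids. Scd1 read 8.62, 8.68 and 7.24 in Hira-null and 9.41, 9.09 and 9.03 in WT arrays, a difference of -0.997 (SE 0.38, limma adjusted p = 0.446), and -0.53 without Hira-null 3. Scd2 had the widest range of either branch, with 10.59, 10.37 and 8.25 in Hira-null and 10.87, 10.92 and 10.71 in WT arrays. Its difference was -1.10 (SE 0.58, limma adjusted p = 0.593), 2.14-fold lower, and -0.35 (SE 0.14) without Hira-null 3, which lay 4.69-fold below the mean of Hira-null 1 and 2. Both genes were without overlap between the lines, with or without that array.

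Fads2 and Fads1 encode the desaturases of polyunsaturated fatty acid synthesis. Fads2 read 8.50, 8.46 and 8.06 in the Hira-null arrays and 9.22, 9.21 and 9.10 in the WT arrays. It had the smallest unadjusted p of all members, at a difference of -0.84 (SE 0.16, limma adjusted p = 0.227), and the value without Hira-null 3 was nearly as large at -0.70 (SE 0.12, limma adjusted p = 0.324). Fads1, its neighbour on chromosome 19, read 8.26, 8.20 and 8.69 in Hira-null and 8.96, 8.60 and 8.81 in WT arrays. Hira-null 3 was the highest Hira-null array for Fads1 and overlapped with WT, so the difference of -0.41 (SE 0.18) became -0.56 (SE 0.15, limma adjusted p = 0.346) without it. Elovl6, which elongates palmitate to stearate, was the fatty acid gene with the largest higher mean in Hira-null arrays. It read 9.81, 9.47 and 9.05 in Hira-null and 9.31, 9.29 and 8.93 in WT arrays, a difference of 0.27 (SE 0.22, limma adjusted p = 0.766), and 0.46 (SE 0.18) without Hira-null 3, where both remaining Hira-null arrays were above all WT arrays.

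**Figure D2:**
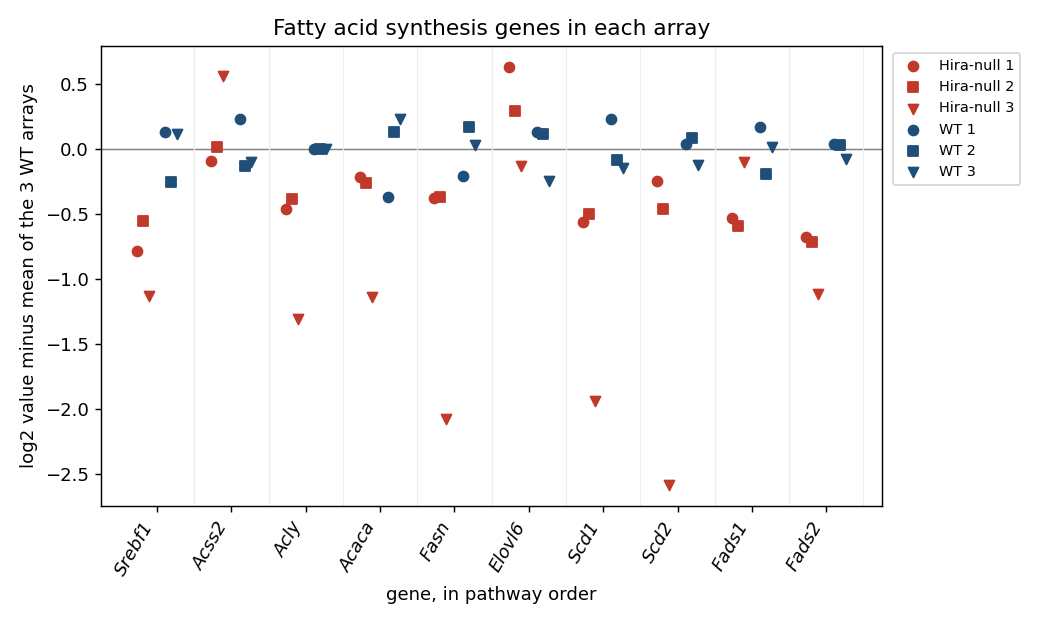
Each point is 1 array's log2 value minus the mean of the 3 WT arrays, for the 10 fatty acid branch genes along the horizontal axis (Hira-null arrays in red at the left of each gene, WT arrays in blue at the right, marker shape for the replicate number). Srebf1, Acly, Fasn, Scd1, Scd2 and Fads2 have all 3 Hira-null arrays below the WT arrays, whereas Acss2 is highest in Hira-null 3.

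**Figure D3:**
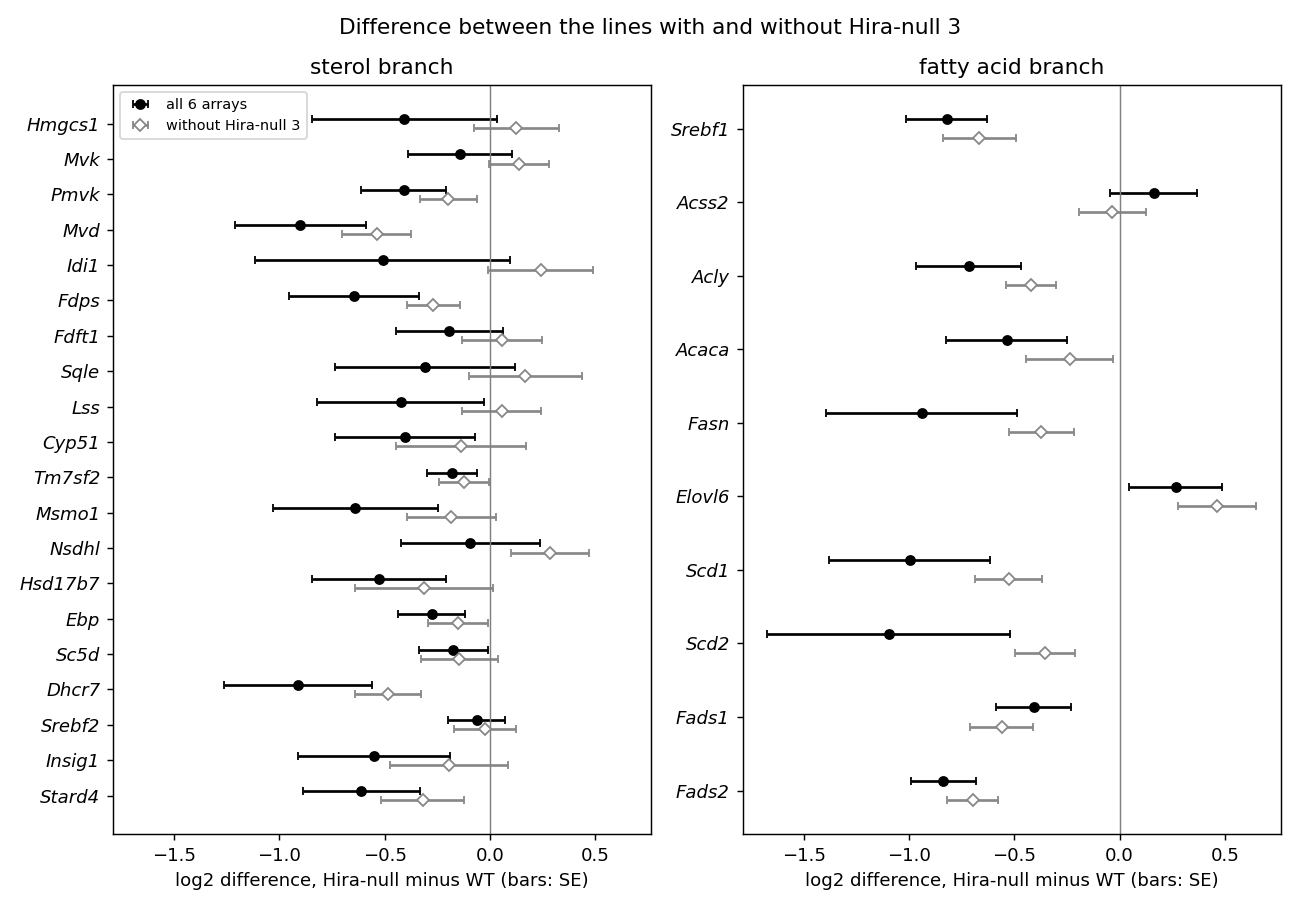
Points are log2 differences, Hira-null minus WT, with bars of 1 SE from limma, for all 6 arrays (black) and without Hira-null 3 (open grey), with the genes of each branch in pathway order down the page. The sterol differences move towards or past 0 without Hira-null 3, and their median goes from -0.41 to -0.14. The fatty acid median goes from -0.77 to -0.40, although Fads1 and Elovl6 move away from 0.

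The array medians of the 2 branches set these patterns side by side. For each array a gene's mean over the 6 arrays was subtracted, and the median of what remained was taken over genes. For the sterol branch they were 0.25, -0.04 and -0.85 in Hira-null 1, 2 and 3, and 0.22, 0.37 and 0.03 in WT 1, 2 and 3, so that Hira-null 1 lay inside the WT range. For the fatty acid branch they were -0.08, -0.01 and -0.79 in the Hira-null arrays, and 0.37, 0.38 and 0.36 in the WT arrays. The WT arrays were thus nearly level in the fatty acid branch and all above the Hira-null arrays.

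Genes of glycolysis and the hypoxia response, 21 kept of 24 listed, were also low in Hira-null 3 but ordered otherwise in the remaining arrays. Their medians were -0.12, 0.29 and -0.93 in Hira-null 1, 2 and 3, and 0.41, -0.19 and 0.41 in WT 1, 2 and 3. WT 2, the highest WT array in 15 of 20 sterol genes, was the lowest WT array in 20 of 21 of these. Hira-null 2, the highest Hira-null array in 1 of 20 sterol genes, was the highest in 19 of 21 of these. Hira-null 3 was at least 1 log2 unit below the other Hira-null arrays in 10 of 21. A lower mean in the Hira-null line than in WT was seen in 20 of 21, with a median difference of -0.39. Without Hira-null 3 these values were 15 of 21 and -0.14. The lower direction and its dependence on that array were thus not particular to the synthesis genes. Slc2a1, the glucose transporter gene, read 10.69, 11.38 and 10.16 in Hira-null and 11.67, 11.07 and 11.64 in WT arrays.

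**Figure D4:**
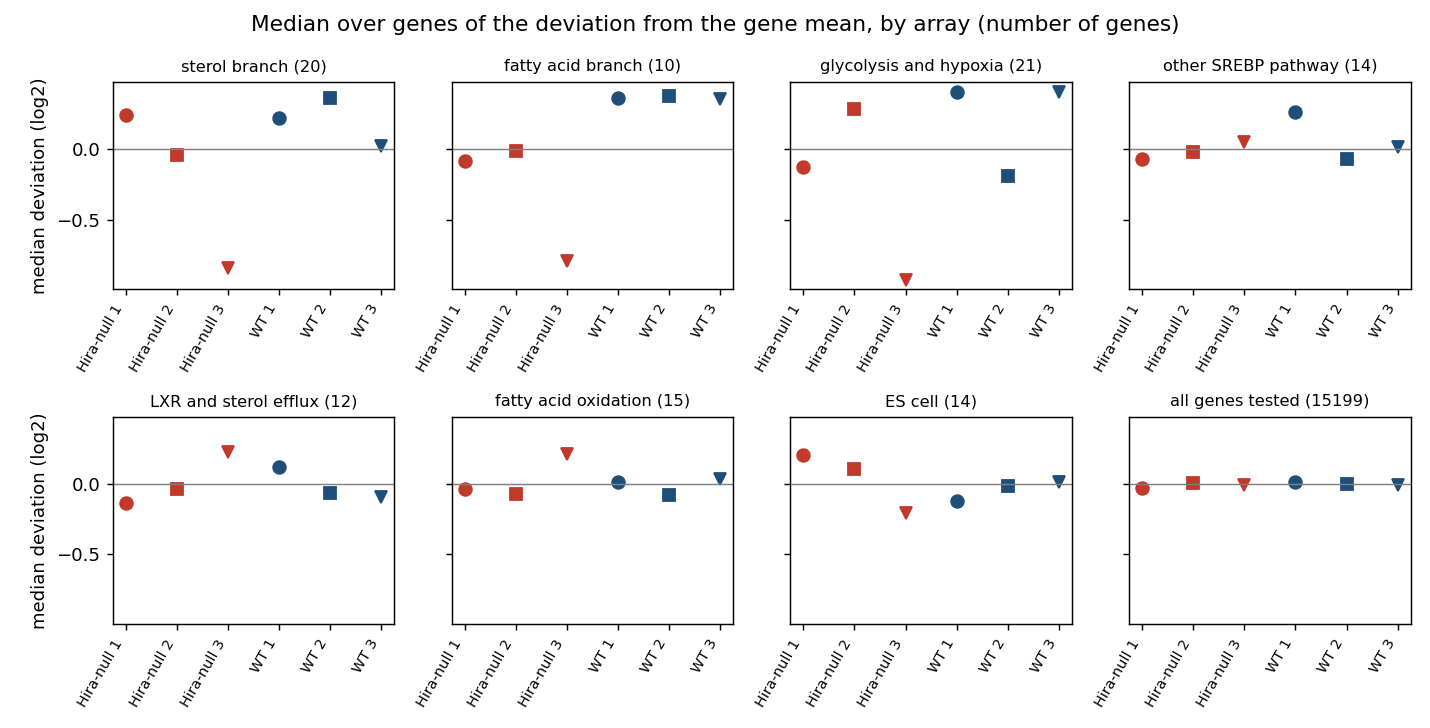
Each panel shows, for 1 gene list with its number of genes, the median over genes of the array's value minus the gene mean (log2, vertical axis) in Hira-null 1 to 3 (red, left) and WT 1 to 3 (blue, right). Both synthesis branches and the glycolysis genes are lowest in Hira-null 3, at -0.85, -0.79 and -0.93, while all genes together stay near 0.

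Other genes of sterol and fatty acid handling were read from 4 further lists. For comparison, at a limma unadjusted p under 0.05, 956 of all 15199 genes tested (6.29%) were lower and 634 higher. Of the lower genes, 365 were among 1354 on chromosome 11 and 234 among 812 on chromosome 8. Of 14 further SREBP pathway genes that were kept, by limma 0 were called, 2 had an unadjusted p under 0.05 with lower values, and the median difference was -0.11. Hira-null 3 minus the mean of the other Hira-null arrays had a median of 0.01 over these genes, with 7 of 14 below 0 and 0 of 14 at least 1 below. Those with the smallest p were Tmem97, a sterol-regulated membrane protein gene on chromosome 11, at a difference of -0.94 (SE 0.28, limma adjusted p = 0.348), and Mbtps1, which encodes a protease that cuts SREBP and lies on chromosome 8, at -0.37 (SE 0.11, limma adjusted p = 0.363). In Hira-null 3, Tmem97 lay 0.95 below the mean of the other Hira-null arrays, and its difference was -0.63 without that array.

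The isoprenoid side branches, which feed prenylation, dolichol and ubiquinone, had 9 kept genes, 3 lower and 6 higher, with a median of 0.09. By limma 0 were called and 2 had an unadjusted p under 0.05. The shares over all genes given above stand beside this count and those of the lists that follow. Hira-null 3 minus the mean of the other Hira-null arrays had a median of -0.025 over them, with 5 of 9 below 0. The farnesyltransferase subunit gene Fnta, on chromosome 8, stood at -0.61 (SE 0.12, limma adjusted p = 0.234) and the prenyltransferase subunit gene Pggt1b at 0.41 (SE 0.17, limma adjusted p = 0.488). Genes of the sterol sensor LXR and of sterol efflux and storage had 12 kept, 4 lower and 8 higher, and a median of 0.07, with by limma 0 called (1 at an unadjusted p under 0.05). Apoe, the apolipoprotein gene, stood at 1.08 (SE 0.41, limma adjusted p = 0.440), and at 0.60 without Hira-null 3, which lay 1.45 above the mean of the other Hira-null arrays. Fatty acid oxidation genes, which run the opposite route, had 15 kept, 7 lower and 8 higher, and a median of 0.04, with by limma 0 called (2 at an unadjusted p under 0.05). The acyl-CoA dehydrogenase gene Acadvl, on chromosome 11, stood at -0.50 (SE 0.13, limma adjusted p = 0.301) and Etfdh, an electron transfer gene, at 0.49 (SE 0.25, limma adjusted p = 0.577), and at 0.23 without Hira-null 3. In Hira-null 3 the LXR and oxidation lists were above the mean of the other Hira-null arrays, with medians of 0.40 and 0.25.

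Markers of cell identity were read beside these values. Over 14 of 14 ES cell markers the mean log2 value was 9.99, 9.90 and 9.60 in Hira-null 1, 2 and 3, and 9.69, 9.81 and 9.80 in WT 1, 2 and 3. Hira-null 3 lay below the mean of the other Hira-null arrays in 11 of 14, with a median of -0.29. Sox2 lay 0.86 below it and Tfcp2l1 0.58 above it. Between the lines 7 markers were lower and 7 higher, with Klf2 at -0.52, Klf4 at 0.41 and Tfcp2l1 at 0.61. Over 9 kept fibroblast and feeder markers, of 13 listed, the mean log2 value was 6.16 to 6.65 in Hira-null and 6.46 to 6.97 in WT arrays. Over 10 kept endoderm markers, of 12 listed, it was 5.57 to 5.89 in Hira-null and 5.99 to 6.38 in WT arrays. Both were highest in WT 1. Over 6 kept neural markers, of 8 listed, it was 5.33 to 5.78 in Hira-null and 5.88 to 5.99 in WT arrays, and over 7 kept mesoderm markers, of 8 listed, 4.68 to 4.86 in Hira-null and 4.57 to 4.88 in WT arrays. None of these lists has a true 0 on this log scale, and their part in the values of the synthesis genes was not tested.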

How the data were processed

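The submitters' processing notes name GCRMA, with no version. The values deposited by the authors are on a log2 scale, read from their range of 1.14 to 14.03, and appear already normalized between arrays. They were used as they stand. Such values cannot show a shift common to most genes. The sources used here name no genome build or annotation, and scanner signals were not used.

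Of 35557 probe sets, 21789 had 1 gene symbol in the platform annotation, 1621 several and 12147 none. Symbols were updated by Entrez identifier with a GRCm38.p6 gene table (21698 matched). Probe sets were kept when at least 3 of 6 arrays exceeded 3.78, the 30th percentile, leaving 25142. A gene is represented by its kept probe set with the highest mean.

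The fit was limma 3.58.1 in R 4.3.3 (lmFit, eBayes, two-sided, no covariates) over all 6 arrays, with a threshold of 0.05. On simulated data with 25142 probe sets it recovered 33.5% of 200 changes of 1 and 84.5% of 200 changes of 2. The median SE of a difference was 0.17. Members and lists were chosen with earlier results of these data known. Every measured member is named. From other lists up to 4 genes with the smallest unadjusted p could be named. Same-numbered arrays had deviations correlated at -0.34, 0.17 and -0.10, and differently numbered ones at -0.41 (Hira-null 3 with WT 2) to 0.44 (Hira-null 3 with WT 1). Deviations within a line of 3 sum to 0, so these values cannot settle whether the numbers pair samples. The main fit was unpaired. Alternatives tried were other filters, normalizations and eBayes settings, arrayWeights, a replicate block, the mean of a gene's probe sets, and leaving out arrays.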

Additional observations from a re-analysis of the deposited data

How the results depend on the processing

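No member was called under any alternative run, with limma adjusted p for members of 0.114 or more, and 3 to 14 of 30 at an unadjusted p under 0.05. Of 450 repeats of the members' differences, 430 kept their direction and 20 changed it. The branch medians kept their sign throughout. The fatty acid median was -0.89 to -0.40 when 1 array was left out and -0.42 without WT 1 and Hira-null 3 together. The sterol median was -0.73 to -0.14 and -0.09. With arrayWeights, which gave Hira-null 3 the lowest weight (0.362), the medians were -0.57 and -0.19. The number of probe sets called over the whole table, 1 with the main settings, was 2 with the stricter filter and with median centring, 5 with arrayWeights, 0 with the replicate block and without WT 1 and Hira-null 3 together, and 0 to 41 when 1 array was left out, with 41 without Hira-null 2. The replicate block gave branch medians of -0.41 and -0.77 and changed no call of a member.

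Without 1 array, differences ranged from -0.14 to 0.025 for Srebf2, -0.38 to 0.29 for Nsdhl, -0.75 to 0.13 for Hmgcs1, -0.31 to 0.14 for Mvk, -1.02 to 0.24 for Idi1, -0.42 to 0.058 for Fdft1, -0.72 to 0.17 for Sqle, -0.76 to 0.055 for Lss and -0.035 to 0.29 for Acss2. Without WT 1 and Hira-null 3 together, Hmgcs1 stood at 0.14, Mvk at 0.06, Idi1 at 0.17, Fdft1 at 0.005, Sqle at 0.14, Nsdhl at 0.23 and Srebf2 at 0.065. With arrayWeights, Mvk stood at 0.0195, Nsdhl at 0.11 and Srebf2 at 0.0117. The cause was not tested. Counts recomputed after seeing the data gave 13 to 20 sterol genes with a lower mean when 1 array was left out and 5 to 11 without overlap (11 without Hira-null 1, 8 without WT 3). For the fatty acid branch they were 8 to 9 and 6 to 7. The share of all genes lower without overlap was 9.55% with all 6 arrays. It was 13.8% without Hira-null 1, 15.4% without Hira-null 3 and 12.8% without WT 3, and was not computed without the other arrays.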
